A study of Homo sapiens with 2 samples.

Results

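CHD4 peaks in gene deserts were 2331 of the 60126 regions of the deposited CHD4 peak list, or 3.88% (Wilson 95% interval 3.73% to 4.03%). A peak was counted here if it lay on chromosomes 1 to 22 or X of hg19, was longer than 200 bp and shorter than 3 kb, and had its centre in no GENCODE v44lift37 gene of any type. Its centre also had to lie more than 200000 bp from the nearest start of a protein-coding gene, and the peak could overlap no 1000 bp flank of a transcript start. The choice used positions and lengths, and no measured strength. The member closest to a protein-coding start lay 200014 bp from it, and the farthest intergenic peak just short of the limit lay at 199972 bp. A further 285 peaks met the rule on position but were too short, and 129 were too long.

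The chromatin came from 501Mel, an established human melanoma cell line, as 1 CHD4 ChIP library and 1 input chromatin library. No treatment or genetic change is named for either library, and both are cells of 1 line. The list gives 1 set of peaks from the ChIP library, without read counts, so the depth behind each peak is unknown here. With no replicates there is no test and no p-value below, and all intervals are 95% intervals that cover counting error only. Neighbouring peaks share the library and their surroundings, and the intervals cover no difference between libraries.

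CHD4 is an ATPase of the NuRD complex, which joins nucleosome remodelling to histone deacetylation by HDAC1 and HDAC2. NuRD is found at promoters and at distal regulatory elements, and it is best known as a corepressor. Gene deserts are long stretches without protein-coding genes. Some hold distant enhancers of developmental regulators, whereas others are AT-rich sequence with few known functions.

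The term desert refers to distance from gene starts. Of the 2331 members, 1775 (76.1%, 74.4% to 77.8%) were also more than 200 kb from the body of any protein-coding gene and 556 were nearer to one. Of these, 25 (1.07% of all members) lay within 10 kb of one. Members within 200 kb of a gene body had a median fold enrichment of 3.05 and those beyond it one of 3.04. The regions were not empty of annotation. The nearest gene of any type was a lncRNA for 1110 members (47.6%), a pseudogene for 755 (32.4%) and a protein-coding gene for 131 (5.62%), and it lay at a median distance of 33.7 kb.

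The sequences behind the findings are given first, read from the plus strand of GRCh37, which is hg19. The strongest member is shown whole because it had the highest fold enrichment, with its single M-box match, TCATGTG, in capitals. The M-box is a motif that MITF, the master regulator of the melanocyte lineage, binds in pigment genes.
strongest member, nearest to RAG2, chr11:39036900-39037114: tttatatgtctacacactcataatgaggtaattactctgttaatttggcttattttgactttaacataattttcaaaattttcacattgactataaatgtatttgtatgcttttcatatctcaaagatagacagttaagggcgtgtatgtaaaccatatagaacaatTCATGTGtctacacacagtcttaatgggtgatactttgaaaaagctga

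The AP-1 motif TGACTCA, bound by dimers of FOS and JUN proteins, is in capitals in 4 of the strongest members that hold it, with 30 bases to each side. Where the match lies on the minus strand it reads TGAGTCA here. The single match of each member is shown.
AP-1 match nearest to PLK2, chr5:57478857-57478923: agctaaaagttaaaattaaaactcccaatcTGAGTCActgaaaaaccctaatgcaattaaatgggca
AP-1 match nearest to TLE1, chr9:83314535-83314601: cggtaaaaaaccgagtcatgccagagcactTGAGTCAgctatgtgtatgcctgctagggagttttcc
AP-1 match nearest to PRR16, chr5:119398514-119398580: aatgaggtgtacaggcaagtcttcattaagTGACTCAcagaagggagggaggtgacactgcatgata
AP-1 match nearest to N4BP1, chr16:48906685-48906751: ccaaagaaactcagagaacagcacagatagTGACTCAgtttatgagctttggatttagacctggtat

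The CTCF motif, bound by the insulator and loop anchor protein CTCF, is in capitals in 4 members that hold it inside the peak and within 250 bp of the centre. They are examples and do not include the strongest member with a match. Their fold enrichments ranged from 3.17 to 3.33.
CTCF match nearest to TMEM38B, chr9:108663904-108663975: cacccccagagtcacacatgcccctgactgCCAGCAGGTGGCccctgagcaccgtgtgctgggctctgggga
CTCF match nearest to SEMA6A, chr5:116283764-116283835: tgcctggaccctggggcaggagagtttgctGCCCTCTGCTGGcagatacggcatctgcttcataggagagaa
CTCF match nearest to TWIST2, chr2:239957122-239957193: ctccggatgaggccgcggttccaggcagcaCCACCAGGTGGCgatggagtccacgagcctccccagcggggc
CTCF match nearest to UQCRFS1, chr19:29370238-29370309: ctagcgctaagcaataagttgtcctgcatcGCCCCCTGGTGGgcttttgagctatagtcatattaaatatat

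M-box matches are in capitals in a further 3 of the strongest members, which were chosen after the motif shares were seen. Where a member holds more than 1 match, the one nearest to its centre is in capitals. The minus-strand form reads CACATGA.
M-box match nearest to SLITRK5, chr13:89539478-89539544: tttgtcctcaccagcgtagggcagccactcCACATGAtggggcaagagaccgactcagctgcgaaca
M-box match nearest to TLR4, chr9:121081503-121081569: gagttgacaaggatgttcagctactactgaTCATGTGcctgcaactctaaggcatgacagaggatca
M-box match nearest to TFAP2C, chr20:55507128-55507194: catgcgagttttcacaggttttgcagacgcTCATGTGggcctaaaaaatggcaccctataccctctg

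CHD4 peaks became sparser with distance from genes, while the median fold enrichment of the called peaks stayed nearly level. Only called peaks are listed, and the lowest −log10 q was 1.01 in the deserts and 1.01 near genes. The medians thus describe peaks above a shared floor and do not compare binding at all sites. The positions that could hold a member, outside genes and transcript starts and more than 200 kb from a protein-coding start, added up to 426 Mb, or 15.03% of the sequenced chromosomes. They held 5.47 members per Mb (exact Poisson interval 5.25 to 5.69). Intergenic sequence within 200 kb of a protein-coding start, treated in the same way, held 10845 peaks in 613 Mb, or 17.7 per Mb (17.35 to 18.02). The near-gene density was thus 3.23 times that of the deserts.

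The fall was gradual. Intergenic sequence within 10 kb of a protein-coding start held 28.2 peaks per Mb (27.1 to 29.3), and that at 100 to 200 kb held 10.7 (10.2 to 11.3). Beyond the limit the density went on falling, to 7.93 per Mb (7.37 to 8.52) at 200 to 300 kb and 5.44 (5.03 to 5.87) at 300 to 500 kb. At 500 to 1000 kb it was 4.92 (4.56 to 5.31), or 0.906 times the density of the class before, with an interval of that ratio that includes 1 (0.813 to 1.01). Sequence more than 1000 kb away still held 250 members, at 3.42 per Mb (3.01 to 3.87). Over the same 8 distance classes the median fold enrichment stayed between 3.03 and 3.06. A −log10 q of at least 5 was given for 173 of 10845 near-gene peaks (1.60%, 1.38% to 1.85%), for 20 of 1394 members at 200 to 500 kb (1.43%, 0.93% to 2.21%) and for 7 of 937 members beyond 500 kb (0.747%, 0.362% to 1.53%). The share beyond 500 kb minus that of the near-gene peaks was −0.848 percentage points (Newcombe interval −1.31 to −0.031). The interval of its difference from the members at 200 to 500 kb included 0 (−1.55 to 0.247).

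**Figure D1:**
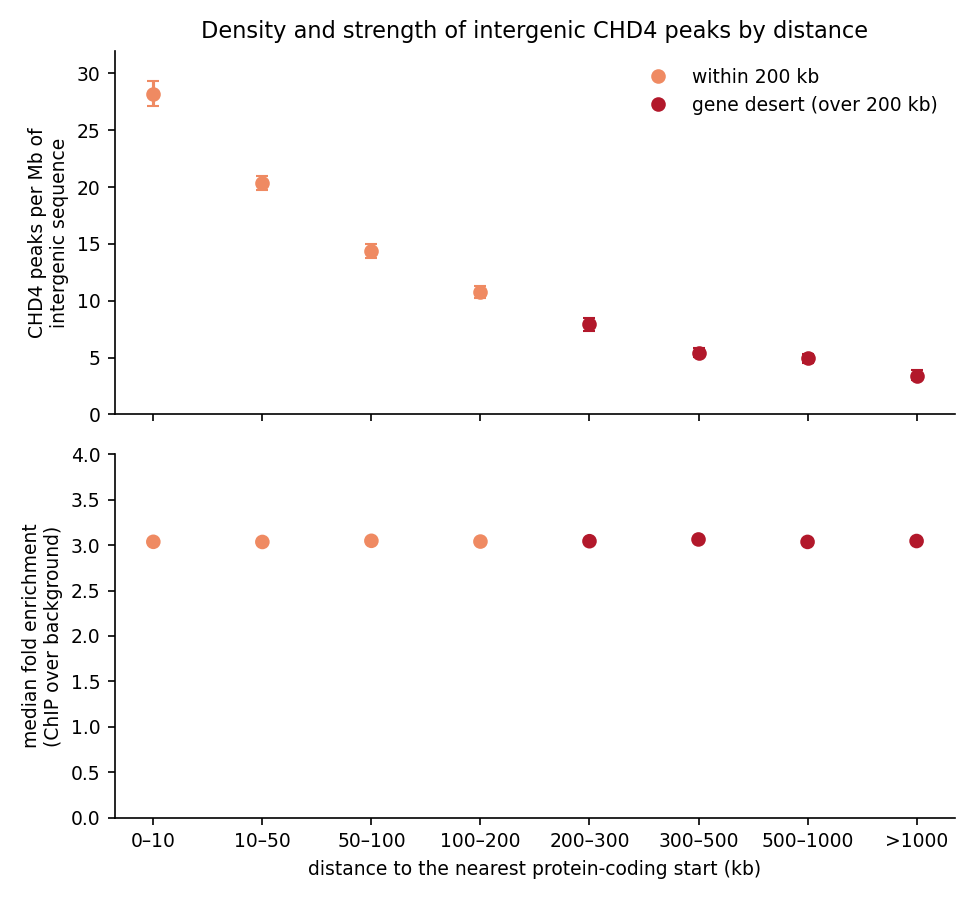
Upper panel: CHD4 peaks per Mb of intergenic sequence by distance to the nearest protein-coding start in kb, with exact Poisson 95% intervals. Lower panel: median fold enrichment of the same peaks. The density falls from 28.2 to 3.42 per Mb across the classes, and the median fold enrichment stays between 3.03 and 3.06.

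The gap in density varied with base composition. Deserts were poorer in G and C: 40.04% of their sequence lay in 10-kb stretches under 36% GC, against 10.7% of the near-gene sequence. Within these GC-poorest stretches the deserts held 4.81 members per Mb (4.48 to 5.15) and the near-gene sequence 7.66 peaks (7.01 to 8.36). In stretches over 42% GC the gap was wider, with 6.89 (6.17 to 7.68) and 25.6 (24.99 to 26.2). Weighting the near-gene sequence to the GC classes of the deserts brought the ratio of densities from 3.23 to 2.09. The intervals of the 2 kinds of sequence did not overlap in any of the 5 GC classes.

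The density also fell with distance from genes of any type. Desert sequence within 10 kb of a gene of any type held 6.41 members per Mb (5.83 to 7.04), and that over 200 kb from any gene held 3.77 (3.04 to 4.62). Members lay upstream of the gene with the nearest start in 1178 cases (50.5%, 48.5% to 52.6%) and downstream of it in 1153.

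In strength the desert peaks resembled other peaks away from transcript starts, among peaks that had all passed the same call. Their fold enrichment over the background had a median of 3.04 with quartiles of 2.84 and 3.34. The medians were 3.04 for near-gene intergenic peaks, 3.02 for 26122 peaks inside genes away from starts and 3.15 for 12152 peaks at transcript starts, all of the same length range. The median −log10 q was 1.84 in the deserts, against 1.89, 1.83 and 2.07. Median length was 638 bp in the deserts, 632 bp near genes, 627 bp in genes and 716 bp at starts.

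Strong peaks were few in every place. A fold enrichment of at least 4 was reached by 79 members (3.39%, 2.73% to 4.20%), beside 5.51% of all peaks of chromosomes 1 to 22 and X, where peaks of any length count. The share was 2.95 percentage points below that of peaks at transcript starts (Newcombe interval −3.75 to −2.03). Against near-gene peaks the difference of −0.70 points (−1.46 to 0.19) and against peaks in genes that of −0.38 points (−1.08 to 0.46) had intervals that include 0. A fold enrichment of at least 5 was reached by 5 members (0.214%), beside 0.501% of all peaks. A −log10 q of at least 2 was given for 974 members (41.8%, 39.8% to 43.8%), beside 48.5% of all peaks. One of at least 5 was given for 27 members (1.16%), beside 2.23% of all peaks. The share with at least 2 was 2.58 points below that of the near-gene peaks (−4.77 to −0.36). Each listed value stands for a whole broad peak. A low one therefore does not show that a peak missed the cutoff of the authors' call.

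Longer members were stronger. The median fold enrichment was 2.90 in 569 members of up to 400 bp and 3.32 in 352 members over 1500 bp. The near-gene peaks of these lengths had 2.91 and 3.32, so that desert and near-gene peaks of equal length lay close together at both ends.

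**Figure D2:**
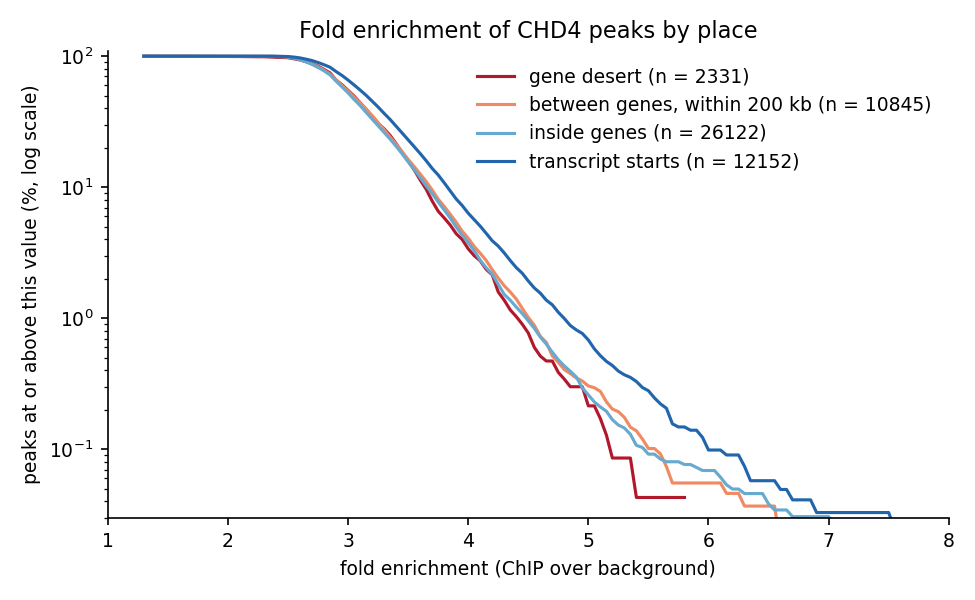
Share of peaks, in percent on a log scale, at or above each fold enrichment, for peaks in gene deserts, between genes within 200 kb of a protein-coding start, inside genes and at transcript starts. The first 3 curves run together near a fold enrichment of 3, and peaks at transcript starts keep a larger share at or above 4. The axis ends at 8 and leaves out the smallest shares, so the few strongest peaks inside genes and at starts are not drawn.

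The strongest member lay on chromosome 11 between *RAG2*, a subunit of the recombinase of lymphocyte receptor genes, and *LRRC4C*, a neuronal adhesion gene, 2417178 bp upstream of the *RAG2* start. It was 215 bp long, and its fold enrichment of 5.84 came with 8.50 as −log10 q. Of all peaks, 99.9% had a lower fold enrichment. The second, between *ASPH* and *NKAIN3*, reached 5.36. The third, at 5.19, lay between *ACTBL2* and *PLK2*, and it is the one shown above with an AP-1 match 150 bp from its centre. These were followed by the members between *ADAMTS5* and *N6AMT1* (5.12) and between *KDM4C* and *DMAC1* (5.08), the last above 5.

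The other 5 of the 10 strongest ranged from 4.97 down to 4.72. Among their nearest protein-coding starts were those of *SLITRK5*, a neuronal adhesion gene, *GAS1*, a hedgehog co-receptor gene, *TLR4*, a receptor of innate immunity, and *TFAP2C*, a transcription factor gene. No one desert held 2 of these 10 members. By length they ran from 215 to 1808 bp, and 9 of the 10 were under 800 bp.

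The members were spread over many deserts. A desert is counted here as the sequence between neighbouring protein-coding starts that holds positions meeting the rule. There were 1037 of these, of which 481 (46.4%) held a member and 70 held 10 or more. The 10 with the most members held 284 (12.2%).

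The desert with the most members ran from *ZPLD1* to *ALCAM*, a cell adhesion molecule of melanoma and leukocytes, on chromosome 3. It held 44 members over 2.61 Mb, or 16.8 per Mb, with a median fold enrichment of 2.79 and a maximum of 3.91. Next came the sequence between *NYAP2* and *IRS1*, an adaptor of insulin receptor signalling, on chromosome 2, with 37 members at 43.0 per Mb. The third, from *HS3ST1* to *RAB28* on chromosome 4, held 33 at 23.5 per Mb. The desert from *AMY1C* to *PRMT6* held 29 and that from *SEMA6A* to *DTWD2* 27, with a strongest member of 4.61.

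Of the remaining 5, the desert from *SLC8A1* to *PKDCC* held 25 members and that from *AGA* to *TENM3* held 24. *JAG1*, a Notch ligand gene, and *BTBD3* enclosed 22, as did *TRIML1* and *FRG1*. *QKI* and *C6orf118* enclosed 21, with a strongest fold enrichment of 4.53. These 10 deserts ranged from 6.93 to 43.0 members per Mb.

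Among deserts with at least 10 members, the densest lay between *PLSCR5* and *ZIC1*, a developmental transcription factor gene, with 15 members in 0.104 Mb, or 144 per Mb. The next were *LY86* to *RREB1* (10 members, 104 per Mb) and *DUSP4*, a MAP kinase phosphatase gene, to *SARAF* (14 members, 99.1 per Mb). A gene without a symbol and *SNX13* enclosed 12 (67.2 per Mb), and *MYO16* and *IRS2* enclosed 15 (63.2 per Mb). In each of these the positions meeting the rule came to 0.237 Mb at most, so the densities rest on short stretches.

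Many members had company. The next peak of any kind was within 10 kb for 1359 members (58.3%, 56.3% to 60.3%), at a median of 6.45 kb. That share was 72.1% for near-gene peaks and 70.6% for peaks in genes. A larger share of the members stood alone, with 227 (9.74%, 8.60% to 11.01%) over 100 kb from the next peak, against 232 near-gene peaks (2.14%, 1.88% to 2.43%). Joining members whose centres were at most 10 kb apart gave 1148 single members and 440 groups of 2 or more, which held 1183 members. The largest group had 9 members in 23961 bp between *ZPLD1* and *ALCAM*. Groups of 8 lay between *MYO16* and *IRS2* and between *SEMA6A* and *DTWD2*.

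The chromosome arms differed widely. Among the 31 arms with at least 5 Mb of desert sequence, 6p had the highest density with 77 members at 15.1 per Mb (11.9 to 18.9). It was followed by 3q with 169 members at 10.4 per Mb (8.86 to 12.04) and 16q with 55 at 8.40 (6.33 to 10.9). The lowest were Xq with 19 members at 0.873 per Mb (0.525 to 1.36) and 18q with 20 at 1.36 (0.828 to 2.09). The median arm held 5.21 per Mb. On 6q there were 144 members at 6.55 per Mb (5.52 to 7.71) and on 5p 62 at 5.05 (3.87 to 6.47).

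Arms rich in desert members were also rich in near-gene peaks. Across the 31 arms Pearson's r was 0.75 and Spearman's rho 0.69, and r was 0.64 without 6p and Xq, the arms farthest from the median near-gene density. These are descriptions, since all arms share 1 library. The background level of the call moved with the arms too. It was estimated for each peak as the background pileup that reconciles the deposited fold enrichment with the deposited −log10 p under a Poisson model. Both values are given for a whole peak but were treated as those of a single position, so the level is only approximate. The estimate assumes the usual formulas of the peak caller, which the list does not state, and whether it reflects the input library is not known, as the sources used here do not name the control. Its median over all peaks of an arm ranged from 2.52 on Xq to 4.29 on 5p, was 3.12 on 6p and 3.59 on 3q, and had a rho of 0.57 with the density of members. On 5p, the arm with the highest level, there were 5.05 members per Mb, with a median fold enrichment of 2.75. The part of the background level in the differences between arms was not tested.

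**Figure D3:**
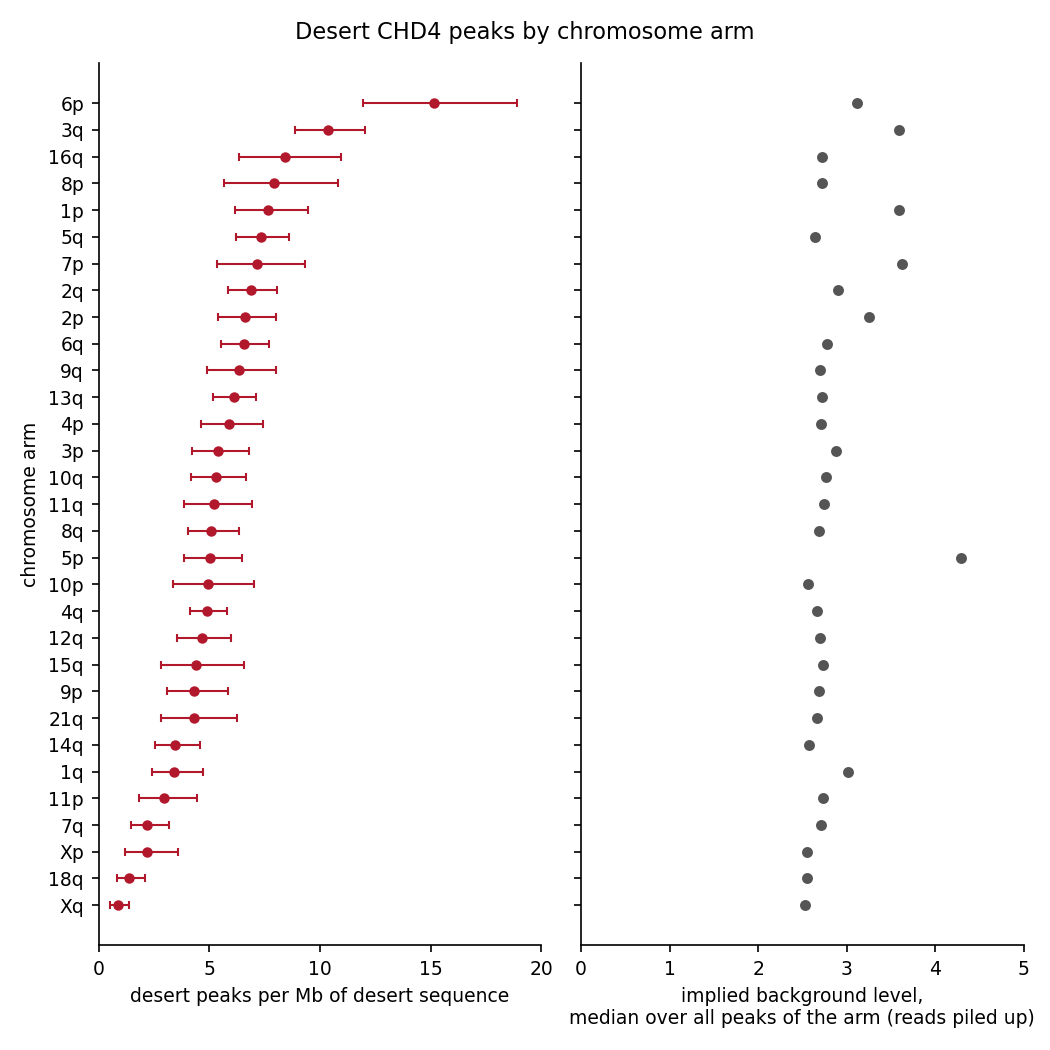
Left: desert peaks per Mb of desert sequence on the 31 chromosome arms with at least 5 Mb of it, with exact Poisson 95% intervals. Right: the implied background level, as the median over all peaks of the arm. 6p leads at 15.1 per Mb, Xq is lowest at 0.873, and 5p has the highest background level at 4.29.

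Members were dense near genes of the melanocyte lineage. For 65 members (2.79%, 2.19% to 3.54%) the nearest protein-coding start was that of 1 of 42 listed melanocyte and melanoma genes, whereas these genes were nearest to 0.920% of the desert sequence. The density there was 16.6 members per Mb (12.8 to 21.1), against 5.47 in all deserts. The interval counts each member separately, although some lay in runs, such as the 5 nearest to *FOXD3*, at 204940 to 223265 bp from its start. The density was higher on both sides of 500 kb, with 16.1 per Mb (11.3 to 22.3) at 200 to 500 kb, where all deserts had 6.53, and 17.2 (11.5 to 24.8) beyond, where all deserts had 4.41. The median fold enrichment of these members was 2.996, against 3.04 for all. Their median background level was 3.06, against 2.79, and its part was not tested. The gene with the nearest start need not be the gene a peak acts on, and the list was chosen with results of these data known.

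Of the 42 genes, 17 were nearest to any desert sequence, and the 65 members fell to 14 of these. *NR2F1*, a nuclear receptor of the neural crest, had 12 members, with fold enrichments from 2.71 to 4.09, all upstream of its start by 276818 to 849746 bp. *ZEB2*, a repressor active in melanocyte differentiation, had 10, at 859446 to 1515701 bp upstream and with a median of 2.74 and a median background level of 4.64. *PAX3*, an activator of *MITF*, had 9, all downstream of the gene. The strongest of these, at 3.91, lay 236625 bp from the start and 137514 bp behind the end of the gene.

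*MITF* itself had 3 members, all downstream of the gene, with fold enrichments of 2.65, 3.46 and 4.18. They lay 1089, 15022 and 19611 bp behind the end of the gene and counted as desert peaks because the start of the gene was 229969 to 248491 bp away. The strongest of them, 682 bp long with a −log10 q of 5.07, was also the strongest of all 65. *FOXD3*, a neural crest regulator, had 5 members, all within 223265 bp upstream and between 2.62 and 3.54. *TFAP2A* and *TFAP2B*, AP-2 factors of the neural crest, had 7 and 8, both sets downstream. The strongest were 3.40, at 963481 bp from the *TFAP2A* start, and 3.86, at 574914 bp from the *TFAP2B* start.

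Of the remaining genes, *TYRP1*, a pigment enzyme, had 3 members with a maximum of 3.34. *KITLG*, the ligand of KIT, had 2 with a maximum of 3.20, and *SOX9* had 2 at 2.54 and 2.58, the weakest maximum of the 14. *ETV1* (3.56), *POU3F2* (3.32), *LEF1* (3.26) and *SOX4* (2.81), all transcription factor genes, had 1 each.

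Transcription factor families were nearest to 207 members (8.88%, 7.79% to 10.1%) and to 6.24% of the desert sequence, at 7.79 members per Mb (6.76 to 8.92). This list shares 12 of the 14 melanocyte genes with members, and 60 of the 207 members were nearest to these. Outside the melanocyte list, transcription factor families were nearest to 147 members at 6.28 per Mb (5.31 to 7.38), or 1.16 times the density of the rest of the deserts, with an interval that includes 1 (0.974 to 1.37). Apart from the shared genes, the most members were nearest to *IRX1*, a homeobox gene (10, with a maximum of 3.67), *KLF6*, a zinc finger factor gene (9, maximum 3.91), and *ETS1* (8, maximum 4.37), *ONECUT1* (8, maximum 4.51), *DACH1* (8, maximum 4.12) and *LMO7* (8, maximum 4.01). The families were taken by the first letters of gene symbols, so a gene such as *LMO7*, which encodes no known transcription factor, is included. Neuronal adhesion and guidance families had a lower density than all deserts. They were nearest to 262 members (11.2%, 10.0% to 12.6%) but to 14.3% of the desert sequence, at 4.29 per Mb (3.79 to 4.85). Of their 61.0 Mb, 43.5 Mb lay beyond 500 kb, where they held 3.71 per Mb (3.15 to 4.32) against 4.41 in all deserts. At 200 to 500 kb they held 5.75 (4.68 to 6.99), against 6.53 in all deserts. The ratio to the rest of the deserts was 0.808 (0.678 to 0.959) beyond 500 kb and 0.872 (0.705 to 1.07) at 200 to 500 kb. Within this list *SEMA6A*, a semaphorin, had 24 members at 30.9 per Mb, and *TENM3*, a teneurin, had 20 at 11.5 per Mb.

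**Figure D4:**
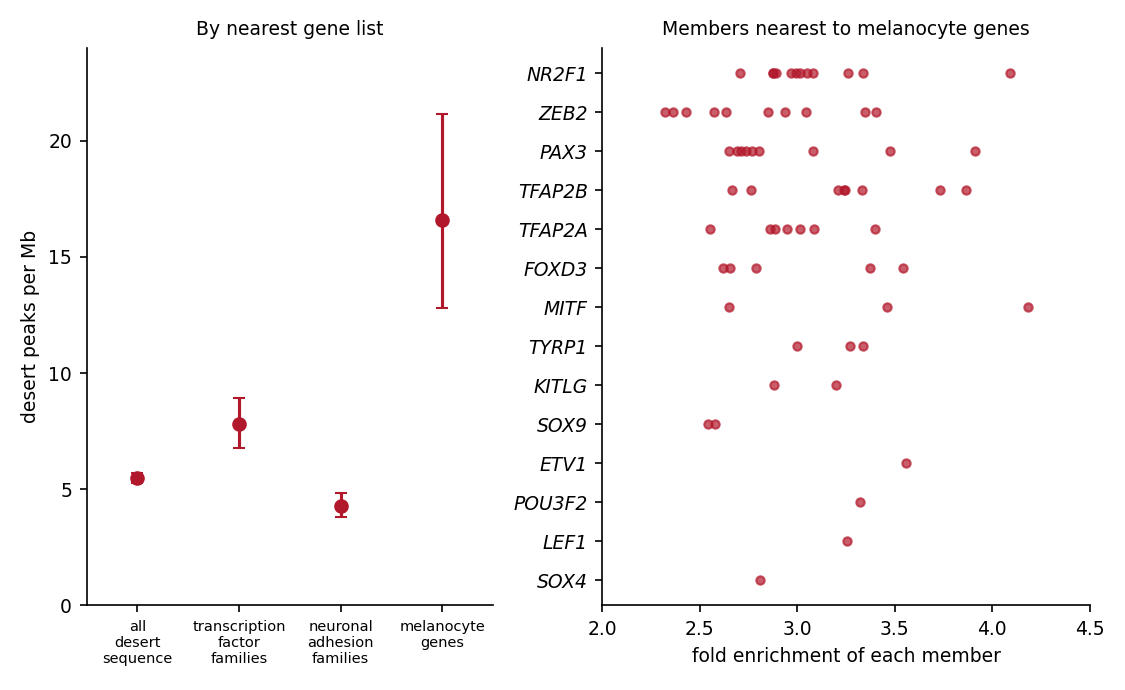
Left: desert peaks per Mb of desert sequence for all deserts and for the sequence nearest to genes of 3 lists, with exact Poisson 95% intervals. Right: fold enrichment of each of the 65 members nearest to a melanocyte gene, with 1 point a member. The melanocyte genes stand at 16.6 per Mb against 5.47 in all deserts, and the highest point is the *MITF* member at 4.18.

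Motifs of several activators were commoner under the members than beside them. Motifs were searched on both strands in 501 bp around each centre and in flanks of equal size centred 5000 bp to either side. They were also searched in windows of equal size tiled every 5000 bp over the desert sequence. Flanks that met other peaks were kept, and the intervals of the ratios treat peaks and their flanks as independent. Of the members, 2330 had a window without unsequenced bases. The AP-1 motif was found in 252 of them (10.8%, 9.62% to 12.1%), in 7.40% of flanks and in 7.51% of tiled windows. The ratio to the flanks was 1.46 (1.25 to 1.71). It was 1.45 near genes and 1.42 in genes, and 1.19 (1.11 to 1.28) at transcript starts. The same letters read backwards, ACTCAGT, gave a ratio of 1.22 (1.03 to 1.46), with a match in 6.76% of tiled windows.

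Members with an AP-1 match had a median fold enrichment of 3.13 with quartiles of 2.87 and 3.44, and those without one had 3.04 with quartiles of 2.84 and 3.33. With the members ranked into 4 equal groups by fold enrichment, 9.43% (7.32% to 12.1%) of the lowest and 13.4% (10.9% to 16.4%) of the highest group had a match, a difference of 3.95 percentage points (Newcombe interval 0.288 to 7.62). The sequence nearest to *PLK2* above is the strongest example. Matches were commonest within 300 bp of the centre, with 119, 110 and 123 in the first 3 distance classes of 100 bp. The classes from 500 to 1000 bp had 61 to 88. The motif read backwards had 83, 82 and 82 in the first 3 classes and 60 to 72 from 500 to 1000 bp.

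The M-box was also commoner under the members than beside them. It was found in 329 members (14.1%, 12.8% to 15.6%), in 9.42% of flanks and in 8.64% of tiled windows, a ratio of 1.499 (1.31 to 1.71). The ratio was 1.53 near genes, 1.62 in genes and 1.21 at starts, so the excess was not particular to the deserts. Read backwards, GTGTACT, the ratio was 1.25 (0.98 to 1.60), with a match in 3.54% of tiled windows. Matches fell from 153 within 100 bp of the centre to between 67 and 100 in the classes beyond 500 bp. The E-box CACGTG, bound by MITF and by MYC and its relatives, was found in 152 members (6.52%), in 4.34% of flanks and in 3.46% of tiled windows, a ratio of 1.502 (1.22 to 1.84). It was 1.37 near genes, 1.47 in genes and 1.76 at starts. In the 973 members whose −log10 q reached 2, the interval of that ratio included 1 (1.26, 0.91 to 1.75). Reading it backwards, GTGCAC, gave 1.04 (0.87 to 1.25), with a match in 6.85% of tiled windows. Fold enrichment differed little with an M-box match (3.07 against 3.04) or an E-box match (3.04 in both).

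CTCF matches were scarce in the deserts. They were found in 13 members (0.558%, 0.326% to 0.952%), in 0.108% of flanks and in 0.106% of tiled windows, a ratio of 5.19 (1.85 to 14.5). Searched over the whole length of each peak, the ratio was 2.39 (1.04 to 5.53). Near-gene peaks had a match in 2.23% (1.97% to 2.53%), and 0.300% of their flanks did. Peaks in genes had 1.17% and peaks at starts 1.43%. Read backwards, the motif was found in 3 members and 0 of 4650 flanks. Inside the peaks themselves there were 394 members with an AP-1 match and 12 with a CTCF match. None of these 12 had an AP-1 match within 50 bp of the CTCF match, and 12 members are too few to read a lack of such pairs from this.

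The remaining motifs were counted in the same way. The TEAD motif ACATTCC gave a ratio of 1.22 (1.04 to 1.44). The intervals included 1 for the SOX motif AACAATG (1.13, 0.99 to 1.29), the TFAP2 motif GCCNNNGGC (1.15, 0.94 to 1.40), the RUNX motif TGTGGTT (1.14, 0.98 to 1.31) and the ETS motif CCGGAAG (1.55, 0.91 to 2.63). The ETS and TFAP2 motifs gave 3.68 (3.30 to 4.10) and 1.86 (1.77 to 1.95) at transcript starts. The cAMP response element TGACGTCA was present in 10 members and gave 2.85 (1.09 to 7.48). In tiled windows the shares were 7.61% for TEAD, 11.8% for SOX, 4.48% for TFAP2, 9.94% for RUNX, 0.723% for ETS and 0.114% for the cAMP response element. None of the motifs spelled out here contains another, and a match is only a match of letters.

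**Figure D5:**
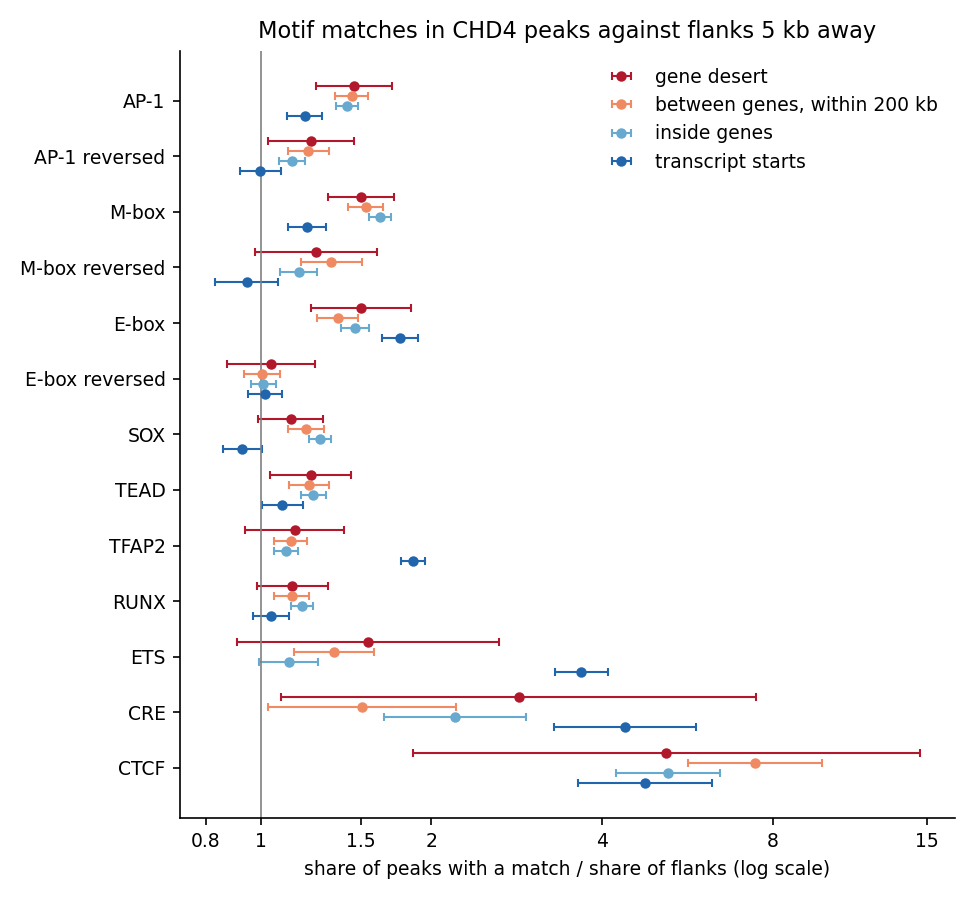
Share of peaks with a motif match divided by the share of flanks 5 kb away, on a log scale, with 95% intervals for the 4 places of peaks. In the deserts AP-1, M-box and E-box lie near 1.5 and CTCF at 5.19, and AP-1, M-box and E-box read backwards lie between 1.04 and 1.25.

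The members were slightly richer in G and C than the desert sequence around them. Median GC content was 38.5% in the members, 37.5% in their flanks and 36.9% in the tiled desert windows, against 44.3% in near-gene peaks and 50.5% in peaks at transcript starts. CpG dinucleotides averaged 0.720 per 100 bp (SD 0.650 over 2330 windows) in the members and 0.708 in the flanks, and 3.14 at transcript starts. A CA repeat of at least 6 units, searched after repeats were seen in the strongest members, was found in 125 members (5.36%, 4.52% to 6.36%), in 2.54% of flanks and in 2.55% of tiled windows, a ratio of 2.11 (1.65 to 2.71). The ratio was 1.87 (1.66 to 2.11) near genes, 1.87 in genes and 1.53 at starts.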

How the data were processed

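CHD4 ChIP and input chromatin of 501Mel cells were sequenced, 1 library each. The submitters' processing notes name hg19, bcl2fastq 2.17.1.14, Bowtie 1.0.0 and MACS2 2.1.1.20160309. The authors deposited 1 broad peak list in which column 7 is a fold enrichment, a ratio of ChIP to local background. The deposited −log10 p and −log10 q values come from the same peak call, whose control is not given in the sources used here. The deposited score is the −log10 q times 10, cut to a whole number, and was not used. The list holds no read counts.

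Peaks were placed by their centres on GENCODE v44lift37, and arms were separated at the longest assembly gap. Densities are peaks per Mb of sequenced positions that meet the same rule. Intervals at 95% are Wilson (shares), Newcombe (differences), Katz (ratios) and exact Poisson (densities, whose ratios have the exact interval given the summed count). Python 3.11.15, numpy 2.4.6, pandas 2.3.3 and scipy 1.17.1 were used, and the scripts were tested on simulated data. Named items are the 10 strongest members (−log10 q from 2 upwards), the 10 deserts with the most members, the 5 densest with at least 10, melanocyte genes nearest to a member, and the 5 strongest members with each of AP-1 and CTCF. Some of these members or their sequences are not reported here. Other genes named from the lists were chosen by their member counts after these were seen. The members and lists were chosen with earlier results of these data known. The reference marks no repeats, so a repeat-masked share could not be computed. Alternatives changed the distance, q, length, merging, gene types, motif window and flanks.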

Additional observations from a re-analysis of the deposited data

How the results depend on the processing

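No paired analysis was possible because ChIP and input have 1 library apiece, so no value has a replicate check. The count of 2331 members became 4005 with a limit of 100 kb, 937 with 500 kb, 974 with a −log10 q of at least 2, 27 with at least 5 and 4309 when only protein-coding genes counted as genes. The density of 5.47 per Mb became 6.88, 4.41, 2.28, 0.0633 and 6.73 in the same order, 6.44 with peaks of any length and 4.63 with peaks within 1000 bp merged. The median fold enrichment was 3.41 and 4.55 under the 2 limits on q, which select for it, and 3.08 with any length. GC content was 39.9%, 37.2%, 38.9% and 40.7% under the 2 distances and the 2 limits on q. The AP-1 ratio was 1.77 (1.41 to 2.22) for members whose −log10 q reached 2 and 2.40 (0.80 to 7.16, 27 members) for those reaching 5. The E-box ratio was 1.26 (0.91 to 1.75, 973 members), an interval that includes 1, and 0.40 (0.05 to 3.26) under the same limits, and the cause was not tested. The CTCF ratio was 2.39 (1.04 to 5.53) anywhere in the peak and 8.63 (2.46 to 30.3) with flanks 10 kb away, and could not be computed for the stricter q or beyond 500 kb.

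For the gene lists, the share of members over the share of sequence was 1.42 for transcription factors (1.68 and 1.78 under the limits on q, the second from 3 members, and 1.15 outside the melanocyte list) and 0.785 for adhesion genes (0.657 at 100 kb, 0.696 and 0.518 under the limits on q, the second from 2 members). It was 3.03 for melanocyte genes, 3.91 beyond 500 kb, 2.68 at a −log10 q of at least 2 (24 members) and 4.03 at the stricter q, which rests on 1 member. Leaving out 1 melanocyte gene at a time gave 2.72 (without *PAX3*) to 3.47 (without *SOX9*). The M-box and E-box alternatives, the omissions of genes and the GC classes were chosen after seeing the data. Of all alternatives, 52 left a value within the interval of the main one (counts of peaks within 1.5 times), 29 moved it further and 1 turned it.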

Other observations

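Of the 110 deserts with at least 1 Mb of sequence meeting the rule on position, 15 held none. The empty one with the most such sequence lay between *GATA3*, a transcription factor gene of lymphoid and epithelial cells, and *CELF2* on chromosome 10, with 1.97 Mb. It was followed by *PRKX* to *NLGN4X* on chromosome X (1.81 Mb) and *SBDS* to *AUTS2* on chromosome 7 (1.54 Mb).

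Words of 7 letters were ranked by their excess in short windows at the centres of members over flanks on the odd-numbered chromosomes, among 5003 words, and the 10 leading words were read on the other chromosomes. There, AGAGGGG had a ratio of 1.56 (95% interval 1.03 to 2.35) and CATTGTC one of 1.65 (1.13 to 2.41), while the intervals of the other 8 included 1.

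Within 100 kb of an assembly gap lay 76 members (3.26%), with a median fold enrichment of 2.77 against 3.06 for the rest.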
